A study of Mus musculus with 12 samples.

Results

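Fibroblast growth factors (FGFs) are secreted proteins that bind heparan sulfate and receptor tyrosine kinases, which pass the signal on through the adaptor FRS2 to the Ras and ERK kinases. Sprouty proteins are made in response to this signal and hold it back. In limb and bone, FGF signalling drives outgrowth of the limb bud, keeps mesenchymal progenitors dividing and sets the pace of cartilage and bone formation. Chromatin accessibility was described here at 10 genes of this pathway: the ligands Fgf2, Fgf7, Fgf10 and Fgf18, the receptors Fgfr1, Fgfr2 and Fgfr3, and the inhibitors Spry1, Spry2 and Spry4. The members were the merged ATAC-seq peak regions whose nearest protein-coding gene, at most 100 kb away, was one of these 10. There were 112 such regions of 153346 in all, 38 at ligand, 45 at receptor and 29 at inhibitor genes. All 8 regions of Fgf7 lay at the same distance from Fam227b, and 1 region of Spry4 was tied in this way with Arhgap26, so these 9 could as well be read as regions of the neighbour. The farthest region kept lay 86797 bp outside Spry2 and was called in 2 libraries, and the nearest left out lay 102881 bp outside Spry2 and was called in 8.

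The mouse cells were labelled MSCLCs, and the series title speaks of bone mesenchymal stem cells, of YAP1 and IGF-1, and of EWS::FLI1, an oncogenic fusion found in Ewing sarcoma. ATAC-seq marks open chromatin by letting a transposase insert adapters into it. The 12 libraries fall by genotype label into EF_IGF1_xeno (n = 1, line S_221), EF_IGF1 (n = 2, line S_220 as replicate 1 and line S_221 as replicate 2), EF (n = 4, line S_220 as replicates 1 and 3 and line S_221 as replicates 2 and 4), Wt_IGF1 (n = 1, title BM) and Wt (n = 4, titles WT_1, WT_2, BM and S_203 for replicates 1 to 4). The sources used here do not say what EF, xeno and the line names stand for, how IGF1 was applied, or the age and strain of the mice. The series design text adds the name Prx1 to the EF cells. No label ties replicates to separate animals or cultures, and the EF, EF_IGF1 and EF_IGF1_xeno libraries rest on 2 lines, so the p-values below measure only the spread between these libraries. Replicates 1 and 2 of EF and of Wt were run on flowcell BSF_0654, the other 8 libraries on BSF_1013.

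Several libraries stand apart, and the EF and Wt comparisons are given with and without Wt replicates 1 and 2. The lists held between 7748 (Wt replicate 1) and 83718 peaks (Wt_IGF1). With read totals not given in the sources used here, list length stands for depth. Of 325 regions at 18 mesenchymal marker genes (Prrx1, Pdgfra, Col1a1 and others), 31.1% to 52.9% were called in every library but EF replicate 2 (17.5%), Wt replicate 1 (0.923%) and Wt replicate 2 (24.3%). Of 117 regions at 16 hematopoietic marker genes, Wt replicate 2 called 75.2%, with a call at 15 of the 16 genes, against 8.55% to 38.5% in the other 11 libraries. Wt replicate 1 called 0% of the regions of the endothelial, epithelial, smooth muscle with pericyte, and skeletal muscle lists. The other 11 libraries called 9.35% to 48.6% of the endothelial, 16.4% to 45.5% of the epithelial, 15.6% to 60% of the smooth muscle with pericyte and 21.1% to 52.6% of the skeletal muscle regions. EF_IGF1 replicate 1, titled S_220, had more regions in common with EF replicate 4, of the other line (0.599 of the regions called in either library), than with EF replicate 3 of its own line (0.406), so its line is given as labelled. In bulk samples, fewer cells with a region open and a less open region in each cell cannot be told apart.

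The start of transcription was examined first, since promoters are the places where a peak is easiest to tie to a gene. RefSeq (GRCm38.p6) gave start windows of 300 bases, 250 before to 50 after the start, for 8 of the 10 genes, all but Fgfr1 and Spry4. Sequences are shown for 6 windows that differ in how often a peak overlapped them, written 5' to 3' on the gene's strand, with capitals marking CpG dinucleotides. The ligand windows are those of Fgf2 (chr3:37348403-37348702, plus strand), Fgf7 (chr2:126034408-126034707, plus strand) and Fgf10 (chr13:118714449-118714748, plus strand).
Fgf2: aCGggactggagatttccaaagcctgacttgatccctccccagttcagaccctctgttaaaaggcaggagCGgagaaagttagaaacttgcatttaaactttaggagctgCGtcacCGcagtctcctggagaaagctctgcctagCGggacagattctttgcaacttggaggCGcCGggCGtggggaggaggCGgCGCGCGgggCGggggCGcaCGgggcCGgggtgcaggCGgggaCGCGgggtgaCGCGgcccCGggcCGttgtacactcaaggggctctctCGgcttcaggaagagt
Fgf7: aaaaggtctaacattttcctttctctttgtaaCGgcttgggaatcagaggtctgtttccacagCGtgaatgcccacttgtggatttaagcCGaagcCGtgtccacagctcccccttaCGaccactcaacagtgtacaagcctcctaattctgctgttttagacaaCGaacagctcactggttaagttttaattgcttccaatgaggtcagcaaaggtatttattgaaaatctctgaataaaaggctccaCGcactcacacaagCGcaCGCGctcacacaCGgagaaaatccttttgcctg
Fgf10: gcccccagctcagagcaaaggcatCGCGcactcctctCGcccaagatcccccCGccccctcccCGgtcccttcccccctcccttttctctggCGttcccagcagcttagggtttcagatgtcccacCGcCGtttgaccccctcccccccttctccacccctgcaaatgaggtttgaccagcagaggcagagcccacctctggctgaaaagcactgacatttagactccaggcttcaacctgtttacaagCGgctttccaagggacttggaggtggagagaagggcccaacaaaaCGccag
The Fgf2 window held 24 CpG and 62.7% G or C, and a peak overlapped it in 10 of 12 libraries, all but EF replicate 2 and Wt replicate 1. The Fgf7 window held 11 CpG and 45.7% G or C, and a peak overlapped it in 10 libraries, all but Wt replicates 1 and 2. The Fgf10 window held 10 CpG and 60.7% G or C, and a peak overlapped it in 2 libraries, EF replicate 4 and Wt_IGF1. However, a region with its strongest summit 460 bp after that start (chr13:118714691-118715455) was called in 5 libraries. These were EF replicates 1 and 4, Wt_IGF1, and Wt replicates 3 and 4. Over the 32851 windows of the table the median was 7 CpG (quartiles 3 and 20) and 52.7% G or C (quartiles 45.7% and 61.7%), so Fgf2 was richer in CpG than the upper quartile and the other ligand windows shown were not.

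The receptor and inhibitor windows shown are the second of the 2 windows of Fgfr3 (chr5:33722056-33722355, plus strand), that of Spry1 (chr3:37639697-37639996, plus strand) and that of Spry2 (chr14:105896770-105897069, minus strand).
Fgfr3: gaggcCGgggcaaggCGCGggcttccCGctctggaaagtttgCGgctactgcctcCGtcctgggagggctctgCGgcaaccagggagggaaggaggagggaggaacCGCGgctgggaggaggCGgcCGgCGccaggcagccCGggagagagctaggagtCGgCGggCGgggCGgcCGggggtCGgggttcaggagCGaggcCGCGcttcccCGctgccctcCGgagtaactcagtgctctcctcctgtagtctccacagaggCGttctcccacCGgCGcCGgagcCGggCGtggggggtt
Spry1: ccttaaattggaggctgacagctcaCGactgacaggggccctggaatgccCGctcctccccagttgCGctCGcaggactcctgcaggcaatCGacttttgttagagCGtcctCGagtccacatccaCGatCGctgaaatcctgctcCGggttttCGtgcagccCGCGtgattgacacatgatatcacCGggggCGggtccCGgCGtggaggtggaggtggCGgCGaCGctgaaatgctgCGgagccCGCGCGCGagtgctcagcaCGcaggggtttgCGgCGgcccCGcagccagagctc
Spry2: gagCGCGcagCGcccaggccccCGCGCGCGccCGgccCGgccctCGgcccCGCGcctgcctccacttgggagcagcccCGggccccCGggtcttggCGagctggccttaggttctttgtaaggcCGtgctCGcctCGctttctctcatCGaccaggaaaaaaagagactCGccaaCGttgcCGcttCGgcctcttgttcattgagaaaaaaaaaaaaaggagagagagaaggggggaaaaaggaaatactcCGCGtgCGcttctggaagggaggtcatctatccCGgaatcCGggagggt
The Fgfr3 window held 30 CpG and a peak in 10 libraries, and the other Fgfr3 window, with 26 CpG, a peak in 8. The Spry1 window held 29 CpG, and a peak overlapped it in 7 libraries: EF_IGF1 replicate 2, EF replicates 1, 3 and 4, Wt_IGF1, and Wt replicates 2 and 4. The Spry2 window held 28 CpG and a peak in 3 libraries (EF_IGF1_xeno, EF replicate 1 and Wt replicate 2), although a region with its strongest summit at -521 bp from the start was called in all 12. Among the windows not shown, that of Fgf18, with 47 CpG, had a peak in 1 library (Wt replicate 2), and that of Fgfr2, with 4 CpG, in 0. Of the letters searched on both strands, CCGGAAGT (an ETS site), GGAAGGAA (a GGAA repeat) and TGANTCA (an AP-1 site) occurred in no window of these 8 genes, and GGAATG (a TEAD site) occurred in the Spry1 window alone. These letters occur in 3.89%, 3.79%, 7.81% and 14.7% of all windows, in the order ETS, GGAA repeat, AP-1 and TEAD. Across all windows on the chromosomes used, a peak overlapped between 18.4% (Wt replicate 1) and 40.2% (Wt_IGF1).

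Away from the listed start windows most regions were called in few libraries. The 8 regions that overlapped a start window were called in a median of 10 libraries (range 1 to 12), the 56 others inside a gene in a median of 3, and the 48 outside in a median of 2. Fgfr1 and Spry4 had no listed window, so all their regions count as away from one. Among these, a region of each gene that spanned an end of the gene interval (chr8:25518534-25520017 and chr18:38600594-38601736) was called in 11 libraries. Of all 112 regions, 34 (30.4%) were called in 1 library only, against 36.3% of all regions, and 13 (11.6%) in 10 or more, against 13.0% of all regions. Of the member regions 55.4% lay within a coding gene's interval, as did 55.3% of all regions. The regions of these genes were thus spread over libraries and places much as regions in general, and this is a description with no test.

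**Figure D1:**
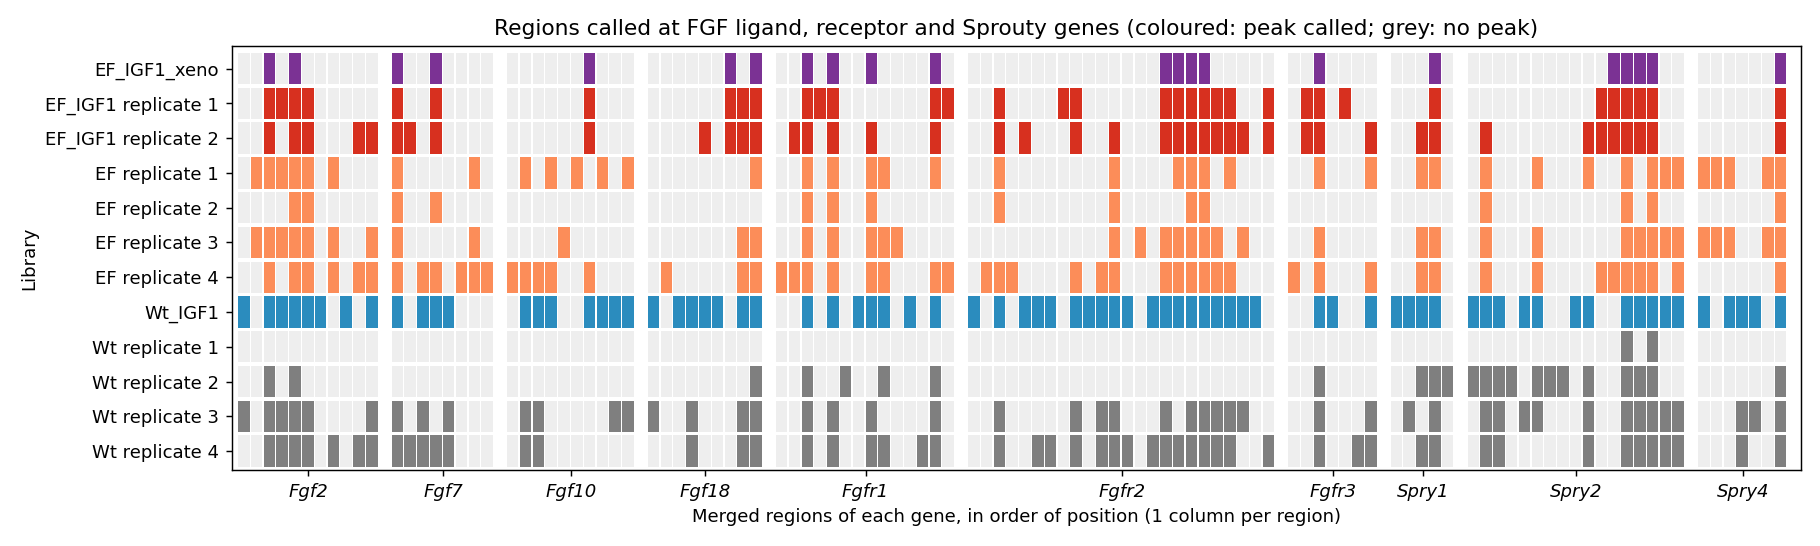
Calls at the 112 regions of the 10 genes (1 column per region, in order of position within each gene) in the 12 libraries (rows, grouped and coloured by genotype label). A coloured cell is a region with a peak in that library and a grey cell one without. Columns filled in nearly all rows are few, 13 of 112 in at least 10 libraries, and the row of Wt replicate 1 holds 2 calls.

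The share of these regions that a library called followed how much it called anywhere. In the EF_IGF1_xeno library 22 of 112 were called (19.6%, against 26.7% of all regions). The EF_IGF1 libraries called 35 and 43 (31.2% and 38.4%, against 36.8% and 39.5%). The 4 EF libraries called 41, 15, 40 and 54 (36.6%, 13.4%, 35.7% and 48.2%, against 32.5%, 16.7%, 32.9% and 42.4%). Both EF_IGF1 libraries and the xeno library thus called a smaller share of these regions than of all regions, and EF replicates 1, 3 and 4 a larger one. Wt_IGF1 called 76 (67.9%, against 51.9% of all regions), 16.0 points above its share of all regions and the widest such gap on the upper side. The 4 Wt libraries called 2, 23, 48 and 53 (1.79%, 20.5%, 42.9% and 47.3%, against 4.87%, 38.4%, 35.3% and 43.7%). Wt replicate 2 lay 17.8 points below its share of all regions, the widest gap on the lower side, and it is also the library with most hematopoietic regions. Over the 12 libraries the 2 shares had a Pearson correlation of 0.898 and a Spearman correlation of 0.853, given as a description because both are set by the same peak lists.

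**Figure D2:**
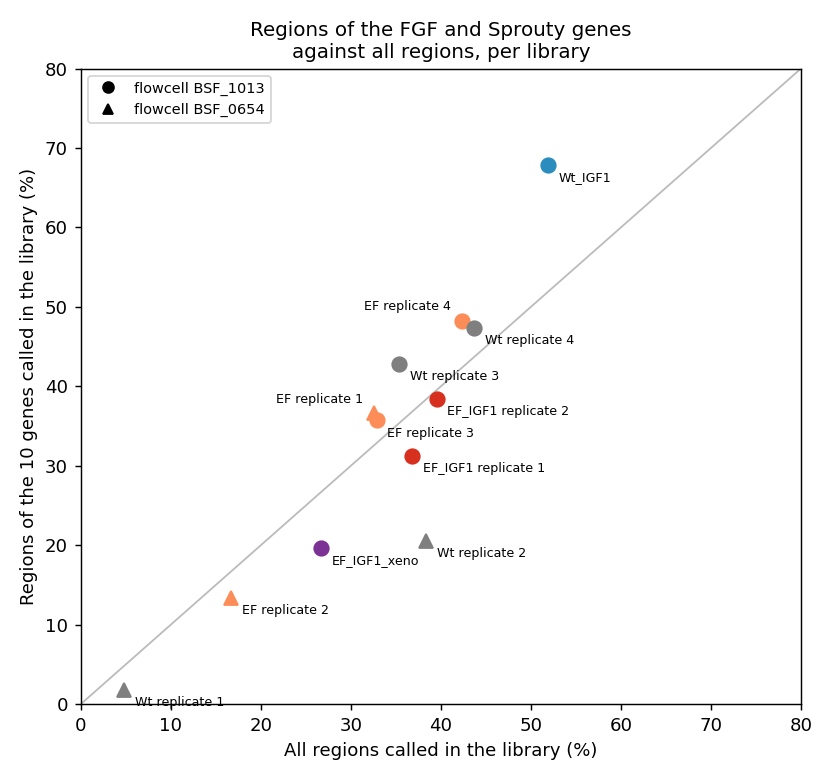
Percent of the 112 regions of the FGF and Sprouty genes called in each library (vertical axis) against the percent of all 153346 regions called there (horizontal axis), 1 point per library, coloured by genotype label and shaped by flowcell, with the line of equal shares. Wt_IGF1 lies 16.0 points above the line and Wt replicate 2 lies 17.8 points below it.

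Among the ligands, Fgf2 encodes a heparin-binding mitogen that is widely used to expand mesenchymal progenitors in culture. Of its 11 regions, 2 were called in the EF_IGF1_xeno library, 4 and 5 in EF_IGF1, 6, 2, 7 and 6 in EF, 8 in Wt_IGF1 and 0, 2, 6 and 7 in Wt, each in the order of the replicates. EF and Wt overlapped widely, and the low libraries of each group were those with short lists or, in Wt, the one with many hematopoietic regions. Its strongest region, inside the gene 12289 bp after the start (chr3:37360469-37361322), was called in every library but Wt replicate 1. The fold over background that the authors' peak caller gave there was 13.3 in the xeno library, 13.0 and 14.9 in EF_IGF1, 14.7, 11.1, 14.1 and 13.3 in EF, 14.1 in Wt_IGF1, and 8.20, 15.9 and 16.8 in Wt replicates 2 to 4. That fold is a peak's own value within its list and is not a level that can be set against another library's.

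Fgf7 (keratinocyte growth factor) is a mesenchymal ligand for the epithelial form of FGFR2. Its 8 regions were called 2 times in EF_IGF1_xeno, 2 and 3 times in EF_IGF1, 2, 2, 2 and 6 times in EF, 4 times in Wt_IGF1 and 0, 0, 3 and 5 times in Wt. EF replicate 4 was high among the EF libraries, and Wt replicates 1 and 2 had no Fgf7 region at all. The strongest Fgf7 region lay 19225 bp after the start (chr2:126053687-126054139). Its fold was 12.6 in EF_IGF1_xeno, 12.2 and 8.87 in EF_IGF1, 5.61 and 14.1 in EF replicates 2 and 4, 5.06 in Wt_IGF1 and 6.56 in Wt replicate 4. Among the EF libraries only those of line S_221 called it, and neither library of line S_220 did.

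Fgf10 is the mesenchymal signal that starts outgrowth of the limb bud. Its 10 regions were called 1 time in EF_IGF1_xeno, 1 time in each EF_IGF1 library, 5, 0, 1 and 5 times in EF, 7 times in Wt_IGF1 and 0, 0, 4 and 2 times in Wt. EF replicates 1 and 4, of different lines and flowcells, were the high ones, and EF and Wt overlapped. The strongest region lay 75094 bp after the start (chr13:118789579-118789947), with a fold of 7.85 in EF_IGF1_xeno, 14.1 and 7.69 in EF_IGF1, 7.70 in EF replicate 4 and 7.37 in Wt_IGF1. All 4 libraries labelled with IGF1 called it, as did 1 of 4 EF libraries and none of the 4 Wt libraries. Wt replicates 1 and 2 called no Fgf10 region at all. The share of all regions with this pattern was not counted, and a link to IGF1 was not tested.

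Fgf18 acts on cartilage and bone growth. Its 9 regions were called 2 times in EF_IGF1_xeno, 3 and 4 times in EF_IGF1, 1, 0, 2 and 3 times in EF, 7 times in Wt_IGF1 and 0, 1, 4 and 3 times in Wt. Wt_IGF1 was highest, and the EF and Wt libraries overlapped. The region at the start (chr11:33147315-33148843), with its strongest summit at -1097 bp from the start, was called in 10 libraries, all but EF replicate 2 and Wt replicate 1. A region 4417 bp after the start (chr11:33142763-33143289) had a fold of 7.57 in EF_IGF1_xeno and of 5.95 and 5.57 in EF_IGF1 and was called in no other library.

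**Figure D3:**
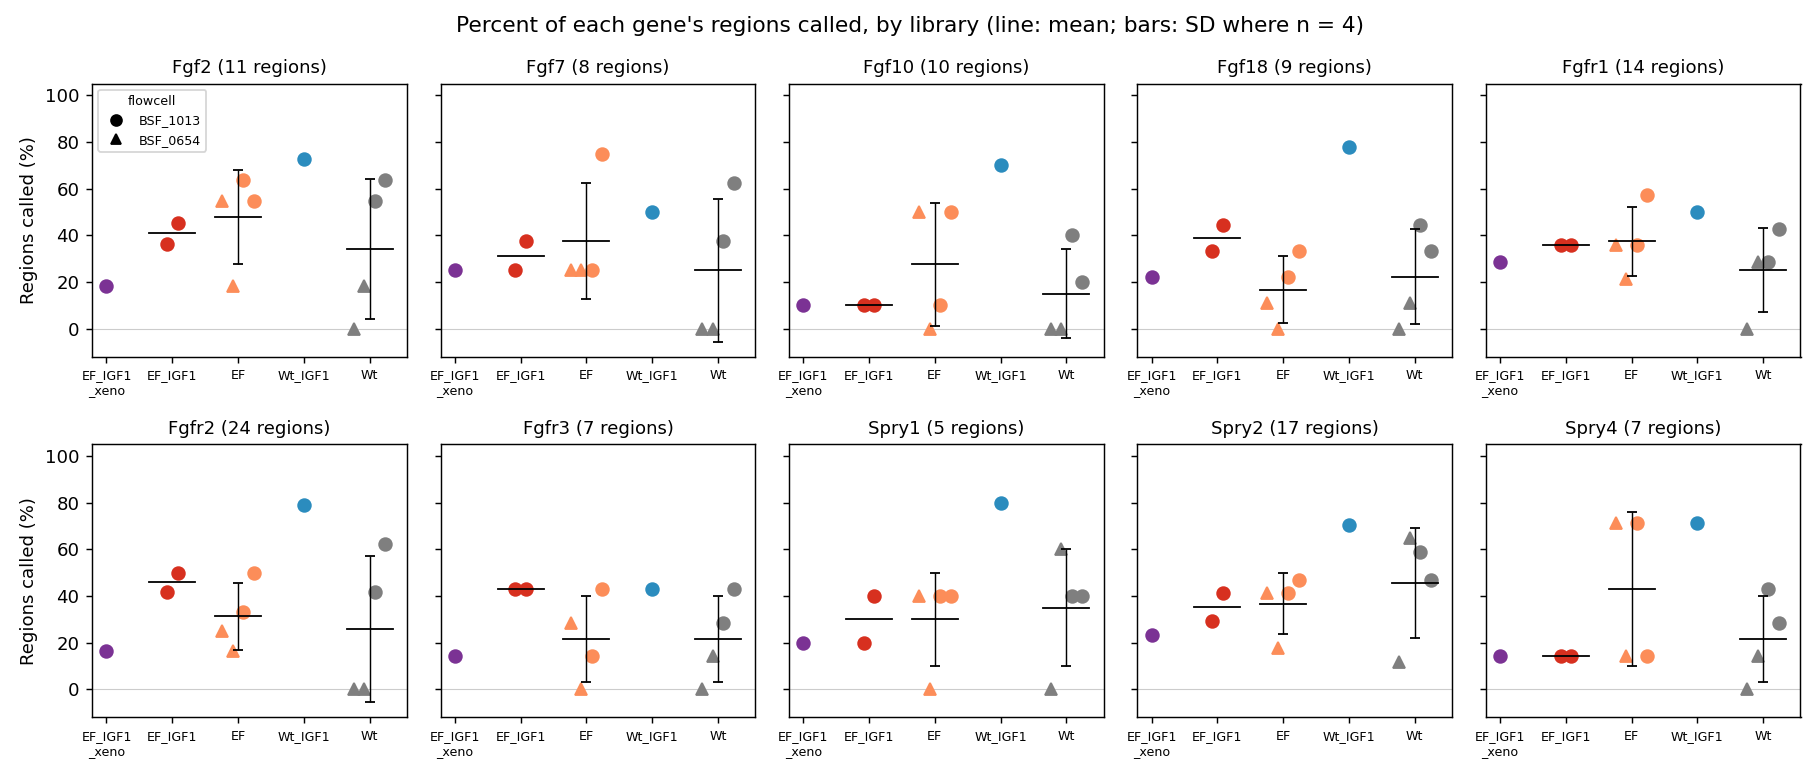
Percent of each gene's regions called in each library (vertical axis, %), 1 panel per gene, 1 point per library, grouped by genotype label with flowcell by shape; lines are group means, and bars are the SD of groups of 4. The 4 EF and the 4 Wt libraries overlap in all 10 panels, and Wt_IGF1 is at or above every EF_IGF1 and xeno library in each.

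Among the receptors, Fgfr1 is the main FGF receptor of limb mesenchyme and also serves osteoprogenitors. Of its 14 regions, 4 were called in EF_IGF1_xeno, 5 and 5 in EF_IGF1, 5, 3, 5 and 8 in EF, 7 in Wt_IGF1 and 0, 4, 4 and 6 in Wt. A region that spanned an end of the gene interval (chr8:25518534-25520017) was called in every library but Wt replicate 1. Its highest −log10 p was 74.6 (EF_IGF1 replicate 2). Another region, inside the gene (chr8:25543307-25544503), had a fold of 6.29, 6.59 and 7.06 in EF replicates 1, 3 and 4. Its fold was 4.68 in Wt_IGF1, and 5.79 and 5.45 in Wt replicates 2 and 4. It was called in neither EF_IGF1 library nor the xeno library.

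Fgfr2, whose mesenchymal form acts in osteoprogenitors and whose epithelial form answers FGF7 and FGF10, held the most regions, 24. These were called 4 times in EF_IGF1_xeno, 10 and 12 times in EF_IGF1, 6, 4, 8 and 12 times in EF, 19 times in Wt_IGF1 and 0, 0, 10 and 15 times in Wt. Both Wt libraries of BSF_0654 were at 0, and the EF libraries overlapped the other Wt libraries. Although no peak overlapped the listed start window, a region inside the gene 438 bp after the start (chr7:130265786-130266644) was called in 8 libraries, and its neighbour 1594 bp after the start (chr7:130264911-130265735) was also called in 8. The strongest region lay 6403 bp upstream of the gene (chr7:130273211-130273866) and was called in all libraries but Wt replicates 1 and 2, with a highest −log10 p of 59.5 (EF_IGF1 replicate 2).

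Fgfr3 restrains the division of growth plate chondrocytes. Of its 7 regions, 1 was called in EF_IGF1_xeno, 3 and 3 in EF_IGF1, 2, 0, 1 and 3 in EF, 3 in Wt_IGF1 and 0, 1, 2 and 3 in Wt. EF and Wt had the same mean, 21.4% of regions (SD 18.4 in each, n = 4 each). The region at the start (chr5:33721580-33722485) was called in 10 libraries. A region at -724 bp from the start (chr5:33720767-33721253) had a fold of 7.36 and 3.95 in the EF_IGF1 libraries and was called nowhere else.

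**Figure D4:**
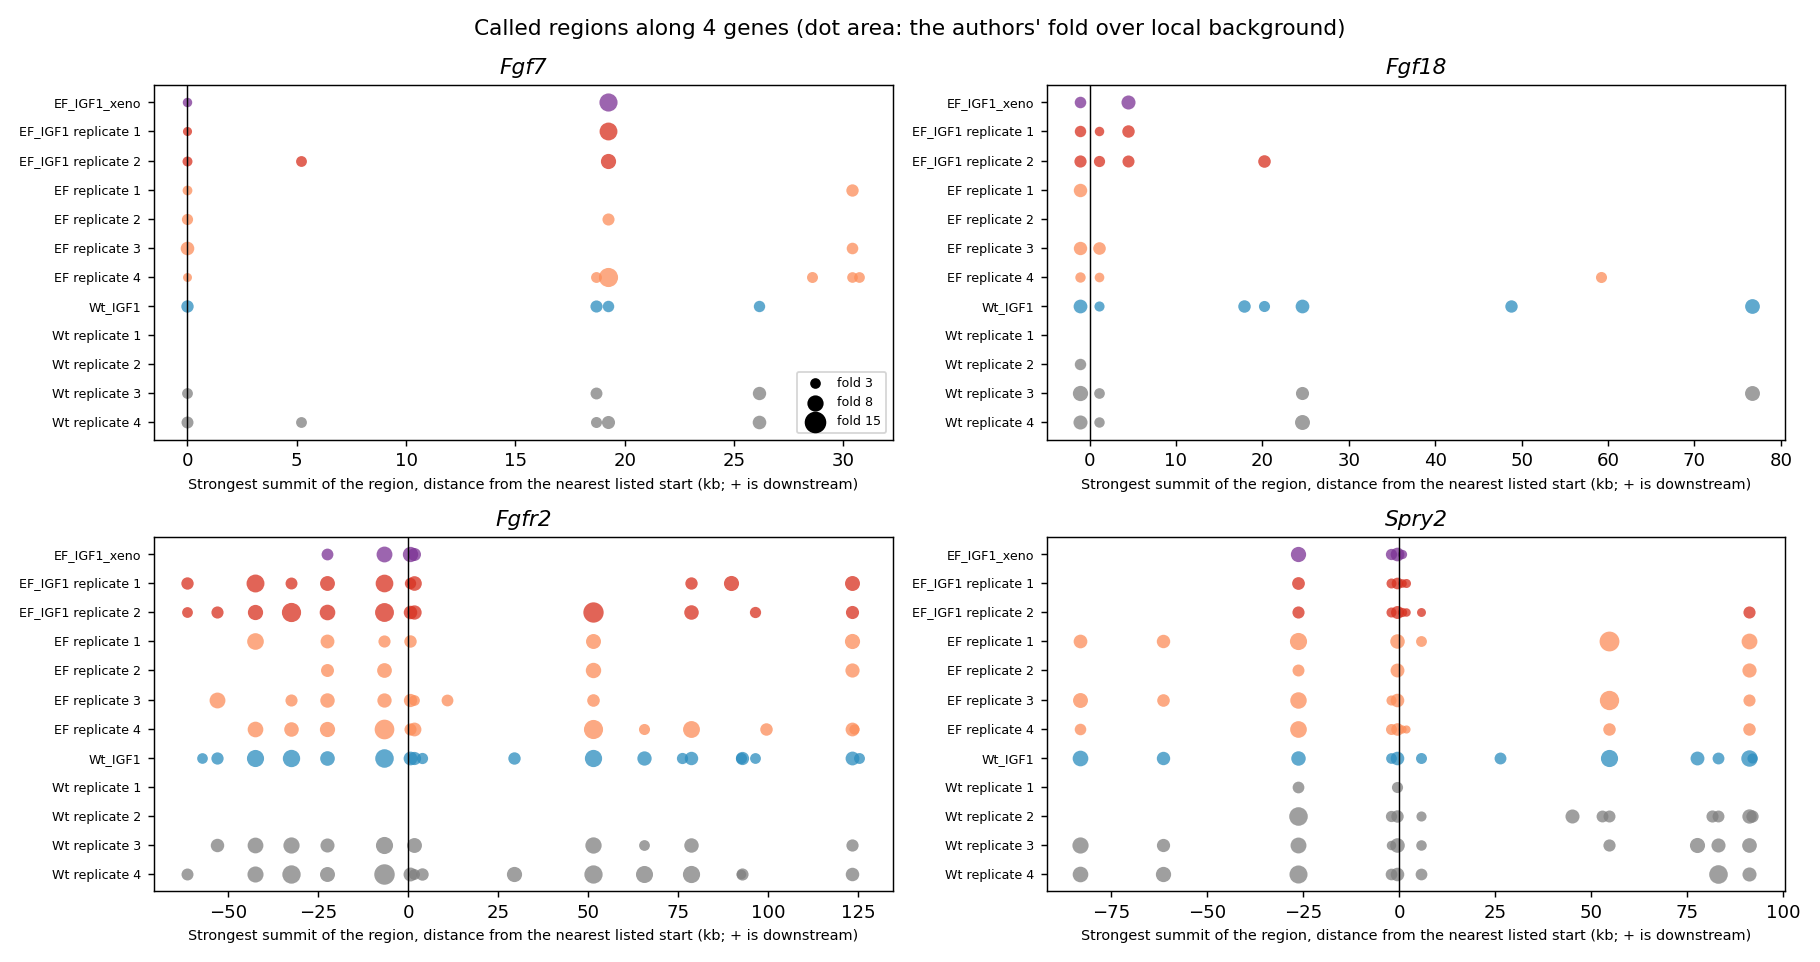
Position of every called region of Fgf7, Fgf18, Fgfr2 and Spry2 (horizontal axis, distance of the region's strongest summit from the nearest listed start in kb, negative upstream) and the libraries that called it (vertical axis, grouped and coloured by genotype label); the area of a dot is the authors' fold of the peak. The Fgfr2 and Fgf7 rows of Wt replicates 1 and 2 are empty, whereas Wt replicate 2 called 11 of the 17 Spry2 regions.

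Wt replicate 2 called 15 of the 29 inhibitor regions but 3 of 38 ligand and 5 of 45 receptor regions. This was not shared by the 3 inhibitors, since 11 of the 15 lay at Spry2, 3 at Spry1 and 1 at Spry4. At Spry4 the share in that library was 14.3%, as at Fgfr3, and at Fgfr1 it was 28.6%. Some of the 15, such as the Spry1 region at chr3:37659844-37660215, were called in no other library and so were members only through it. In EF_IGF1_xeno the calls were 7 at ligands, 9 at receptors and 6 at inhibitors. In EF_IGF1 they were 10 and 13 at ligands, 18 and 20 at receptors and 7 and 10 at inhibitors. In EF they were 14, 4, 12 and 20 at ligands, 13, 7, 14 and 23 at receptors and 14, 4, 14 and 11 at inhibitors. The inhibitor calls of EF replicates 1 and 3, of line S_220, were thus the highest of that group, whereas EF replicate 4, with the longest EF list, led at ligands and receptors. Wt_IGF1 had 26, 29 and 21 calls at ligands, receptors and inhibitors. Wt replicates 1, 3 and 4 had 0, 17 and 17 at ligands, 0, 16 and 24 at receptors and 2, 15 and 12 at inhibitors. At Fgf7, Fgf10 and Fgfr2 together, a grouping chosen after the values were seen, Wt replicate 2 called 0 of 42 regions, against 38.4% of all regions. Wt replicate 1 also called 0, and Wt replicates 3 and 4 called 17 and 22. The lowest counts elsewhere were 6 in EF replicate 2 and 7 in EF_IGF1_xeno. How often other genes had no call in Wt replicate 2 was not counted. The part of the hematopoietic regions of this library in that pattern was not tested.

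Spry1 is a Sprouty gene needed to limit receptor signalling during kidney development. Of its 5 regions, 1 was called in EF_IGF1_xeno, 1 and 2 in EF_IGF1, 2, 0, 2 and 2 in EF, 4 in Wt_IGF1 and 0, 3, 2 and 2 in Wt. EF replicate 2 and Wt replicate 1, with the 2 shortest lists, were at 0. The strongest region lay 9322 bp beyond the gene (chr3:37653921-37654730), was called in the other 10 libraries and reached a −log10 p of 54.2 in EF replicate 4.

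Spry2 holds back ERK signalling downstream of FGF and other receptor tyrosine kinases. Of its 17 regions, 4 were called in EF_IGF1_xeno, 5 and 7 in EF_IGF1, 7, 3, 7 and 8 in EF, 12 in Wt_IGF1 and 2, 11, 10 and 8 in Wt. It was the only gene of the 10 with a call in every library, and Wt replicate 2 was among the highest here. It also held the only 2 of the 112 regions called in all 12 libraries (1.79%, against 3.77% of all regions). The first lay 107 bp upstream of the gene (chr14:105896926-105898087), with a fold between 4.76 in Wt replicate 1 and 8.15 in Wt replicate 3. The other lay 25662 bp upstream (chr14:105922481-105923340), with a fold between 5.29 in Wt replicate 1 and 13.2 in Wt replicate 2. Inside the gene, a region 744 bp after the start (chr14:105895981-105896554) was called in EF_IGF1_xeno, both EF_IGF1 libraries and EF replicate 4, with folds of 3.29, 2.84, 3.27 and 2.59 in that order. A neighbour at 1706 bp (chr14:105894943-105895517) was called in both EF_IGF1 libraries (3.13 and 2.78) and EF replicate 4 (2.57).

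Spry4 is a feedback inhibitor of the same kind. Of its 7 regions, 1 was called in EF_IGF1_xeno, 1 in each EF_IGF1 library, 5, 1, 5 and 1 in EF, 5 in Wt_IGF1 and 0, 1, 3 and 2 in Wt. The 4 EF libraries split by line on both flowcells, with 5 in each S_220 library and 1 in each S_221 library. On BSF_0654 the S_221 library was EF replicate 2, which had the shortest EF list (27332 peaks). The share of all genes that split by line in this way was not counted. A region 43353 bp outside the gene (chr18:38542351-38542894) had a fold of 11.9 and 12.9 in EF replicates 1 and 3 and of 5.07 in Wt_IGF1 and was called in no other library. The region shared by 11 libraries spanned an end of the gene interval (chr18:38600594-38601736). Its fold was 10.9 in EF_IGF1_xeno, 5.86 and 11.7 in EF_IGF1, 9.78, 7.09, 9.44 and 10.6 in EF, 4.19 in Wt_IGF1, and 8.80, 6.04 and 7.16 in Wt replicates 2 to 4.

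The comparison of EF with Wt asks whether accessibility at these genes differed with the EF genotype. A region counted as gained where 3 or 4 EF libraries and 0 Wt libraries called it, and as lost in the mirror case. Of the 112 regions 1 was gained (0.893%), close to the 1.19% of all regions, and 1 was lost (0.893%), close to the 0.938% of all regions. The gained region lay in Fgf7, 30389 bp after the start (chr2:126064707-126065229), with a fold of 5.86, 5.16 and 4.36 in EF replicates 1, 3 and 4. The lost region lay 77796 bp outside Spry2 (chr14:105813524-105814151), with a fold of 5.43, 7.62 and 13.3 in Wt replicates 2, 3 and 4, and Wt_IGF1 called it too at 5.40. On flowcell BSF_1013 alone, 1 region was called in both EF and neither Wt library (background 1.91%) and 5 the reverse (4.46% of the 112, background 4.57%). On BSF_0654 alone 8 were called in both EF and neither Wt library (7.14%, background 4.09%) and 0 the reverse (background 0.49%), with Wt replicate 1 holding 2 calls in all. With Wt replicates 1 and 2 left out the counts were 1 gained (0.893%, background 1.49%) and 4 lost (3.57%, background 4.06%).

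By gene, the mean share of regions called was higher in EF at 6 of the 10 genes, lower at 3 and equal at Fgfr3, and no difference exceeded the spread between libraries. Spry4 had the widest difference, with 42.9% ± 33.0 in EF and 21.4% ± 18.4 in Wt (exact two-sided permutation test over 70 label orders, p = 0.343). Fgf2 averaged 47.7% ± 20.2 in EF and 34.1% ± 30.0 in Wt (exact permutation p = 0.657), and Fgfr1 averaged 37.5% ± 14.7 in EF and 25% ± 18.0 in Wt (exact permutation p = 0.429). The lower ones were Spry2 with 36.8% ± 13.0 in EF and 45.6% ± 23.7 in Wt (exact permutation p = 0.571), Fgf18 with 16.7% ± 14.3 in EF and 22.2% ± 20.3 in Wt (p = 0.83, exact), and Spry1 with 30% ± 20 in EF and 35% ± 25.2 in Wt (p = 1, exact), each ± an SD of 4 libraries. Fgf7, Fgf10 and Fgfr2 were 12.5, 12.5 and 5.21 points higher in EF (exact permutation p = 0.6, 0.571 and 0.8). After Benjamini-Hochberg adjustment over the 9013 genes with at least 5 regions every one of these p-values was 1. The same held for every gene tested, so the adjusted values set no gene apart and say nothing particular about these 10. With 4 against 4 libraries no unadjusted permutation p can fall below 0.0286, and 0.311% of all genes tested had one under 0.05. At none of the 10 genes did the 4 EF libraries all lie on 1 side of the 4 Wt libraries, against 0.233% of all genes tested with EF above and 0.0777% with EF below.

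The differences were not alike on the 2 flowcells, which also hold different Wt cultures, so flowcell and culture cannot be told apart. On BSF_1013 the differences of EF minus Wt were 0 points at Fgf2, Fgf7, Fgf10 and Spry1, 10.7 at Fgfr1 and 7.14 at Spry4, and they were negative at Fgf18 (-11.1), Fgfr2 (-10.4), Fgfr3 (-7.14) and Spry2 (-8.82). On BSF_0654 they were 27.3 points at Fgf2, 25 at Fgf7 and Fgf10, 14.3 at Fgfr1, 20.8 at Fgfr2, 7.14 at Fgfr3 and 35.7 at Spry4, with 0 at Fgf18, -10 at Spry1 and -8.82 at Spry2. With Wt replicates 1 and 2 left out, the differences at Fgf2 (-11.4), Fgf7 (-12.5), Fgf10 (-2.5) and Fgfr2 (-20.8) turned negative. Without them Fgfr1 was 1.79 and Spry4 7.14 points higher in EF, and Spry2 was lower (-16.2), values for which no test was made.

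To allow in part for the length of the lists, each library's share of all regions was subtracted from its share of a gene's regions. List length is not removed by this, because a library with no call at a gene is fixed at minus its own share. Wt replicate 1, with the shortest list, was such a library at Fgfr1. On this scale Fgfr1 was 3.19, 4.76, 2.84 and 14.8 points above the library in EF replicates 1 to 4 and -4.87, -9.80, -6.78 and -0.805 points in Wt replicates 1 to 4. Every EF library thus lay above every Wt library, a difference of 12.0 points (exact two-sided permutation test, p = 0.0286, the smallest possible; adjusted p = 0.526 over the 9013 genes). With labels permuted within flowcell the exact permutation p was 0.0556, the smallest that design can give and not under 0.05. Without Wt replicates 1 and 2 the difference was 10.2 points (exact permutation p = 0.0667, again the smallest possible), and without EF replicate 2 as well it was 10.7 points (exact permutation p = 0.1, the smallest possible). Such a separation with EF above held for 232 genes, 2.57% of those tested, and the p-value of Fgfr1 does not pass the correction.

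The comparison of EF_IGF1 with EF was made on flowcell BSF_1013, 2 libraries against 2, and carries no test. It shares its EF libraries with the comparison above. Gained regions were called in both EF_IGF1 and neither EF library, and numbered 3 of 112 (2.68%, background 2.7%). They were the Fgf18 region 4417 bp after the start and the Fgfr3 region at -724 bp described above, and an Fgfr2 region 60882 bp upstream of the gene (chr7:130327690-130328272) with a fold of 5.86 and 4.45 in EF_IGF1 and 5.50 in Wt replicate 4. Lost regions numbered 5 (4.46%, background 2.08%). They were the Fgf7 region gained in EF, the Fgfr1 region at chr8:25543307-25544503, 1 region of Fgf2 and 2 of Spry2. The Fgf2 region, 34659 bp after the start (chr3:37383099-37383733), had a fold of 7.08, 10.2 and 5.13 in EF replicates 1, 3 and 4 and 6.65 in Wt replicate 4. The Spry2 region 49555 bp outside the gene (chr14:105841565-105842392) had a fold of 15.1, 14.3 and 5.99 in EF replicates 1, 3 and 4, 11.3 in Wt_IGF1, and 5.52 and 5.72 in Wt replicates 2 and 3. The other lay 82731 bp upstream (chr14:105979550-105980519), with a fold of 7.21, 8.54 and 5.13 in EF replicates 1, 3 and 4, 9.43 in Wt_IGF1, and 10.1 and 9.38 in Wt replicates 3 and 4. The rule itself requires calls in EF replicates 3 and 4. Of the EF libraries outside the rule, EF replicate 1 called all 5 lost regions. It is of the same line, S_220, as EF replicate 3, and the pair shared 0.62 of the member regions called in either, so its calls are no independent check. EF replicate 2, of line S_221 and with a short list, called none of the 5.

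Within line S_221, EF_IGF1 replicate 2 called 8 regions that EF replicate 4 did not, EF replicate 4 called 19 that EF_IGF1 did not, and 35 were called in both. As shares of the 112 these were 7.14% and 17.0%, against 8.05% and 10.9% of all regions. Fgf7 and Fgf10 held 4 each of the 19, Fgfr1 and Fgfr2 held 3 each, and Spry1 and Spry4 held 0. Within the library labelled line S_220, EF_IGF1 replicate 1 called 15 that EF replicate 3 did not and the reverse held for 20, with 20 in both. As shares these were 13.4% and 17.9%, against 16.7% and 12.8% of all regions, and Spry2 and Spry4 held 4 each of the 20.

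Wt_IGF1 was set against the 2 Wt libraries of its flowcell, with 1 library and therefore no replicate check. It called 20 of the 112 regions that neither Wt library called (17.9%, background 10.6%), and 0 regions called in both Wt libraries were missing from it (background 0.624%). The 20 were spread over 9 of the 10 genes (all but Fgf7), with 4 at Fgfr2, 3 at Fgf10 and at Fgf18, 2 at Fgf2, Fgfr1, Spry2 and Spry4, and 1 at Fgfr3 and Spry1. Of these 20, 12 were called in no other library (10.7% of the 112, against 5.19% of all regions). Against Wt replicate 3 of the same title, BM, it called 28 more and 0 fewer regions (25% and 0%, against 18.5% and 1.98% of all regions), and Fgfr2 had 19 of its 24 regions in Wt_IGF1 and 10 in Wt replicate 3. Wt_IGF1 had the longest peak list of the series, and the part of list length in these counts was not tested.

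The EF_IGF1_xeno library was set against the 2 EF_IGF1 libraries, again without a replicate check. No member region was called in it and in neither EF_IGF1 library (0 of 112, background 0.794%), and 9 were called in both EF_IGF1 libraries and not in it (8.04%, background 6.83%). Of the 9, 5 lay at Fgfr2 and 1 each at Fgf2, Fgf18, Fgfr3 and Spry2. Against EF_IGF1 replicate 2 of the same line, S_221, it called 0 more and 21 fewer regions (0% and 18.8%, against 1.98% and 14.8% of all regions), and Fgfr2 had 4 regions in the xeno library and 12 in EF_IGF1 replicate 2. Its list was shorter than both EF_IGF1 lists, with 43416 peaks against 59325 and 63506.

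Because Spry4 split by line, the EF libraries of S_220 and S_221 were compared, a comparison added after the data were seen. Of the 112 regions, 7 were called in both S_220 and neither S_221 library (6.25%, background 5.38%), 4 of them at Spry4, 2 at Fgf2 and 1 at Spry2. Only 1 was called in both S_221 and neither S_220 library (0.893%, background 2.57%), the Fgf7 region 19225 bp after the start. Of the 4 Spry4 regions, 2 were called in no library other than EF replicates 1 and 3, as was the Fgf2 region at -2192 bp from the start (chr3:37346274-37346757, fold 6.15 and 7.47). The EF_IGF1 library labelled S_220 called none of these 4 Spry4 regions.

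The rest of the pathway was described from a list of 66 other genes with 675 regions. Gained in EF against Wt were 9 regions (1.33%, against 1.19% of all) of 8 genes, with 2 at the receptor adaptor Frs2 and 1 each at Ccnd1 (cyclin D1), the endocrine ligand Fgf21, the FGF receptor-binding membrane proteins Flrt1 and Flrt2, and the heparan sulfate 6-O-sulfotransferase Hs6st2. Lost in EF were 7 regions (1.04%, against 0.938%) of 7 genes, among them 1 each at the ubiquitin ligase Cbl, the ERK phosphatases Dusp5 and Dusp6, the AP-1 gene Fos, the adaptor Grb2 and the sulfotransferase Hs2st1. By role, gained and lost regions numbered 1 and 0 of 73 at other Fgf genes. At receptors and co-receptors they numbered 0 and 0 of 20, and at adaptors and kinases 2 and 1 of 168. They numbered 0 and 3 of 138 at other inhibitors and 1 and 2 of 107 at targets. Extracellular modulators had 5 and 1 of 169. No test between roles was made. In EF_IGF1 against EF, 8 regions of 7 genes were gained (1.19%, against 2.7%), 2 of them at the inhibitor Spred2 and 1 each at Dusp5, Fgf11, Fgf16, Flrt1 and Flrt2. Lost there were 12 regions of 8 genes (1.78%, against 2.08%), with 3 at Hs6st2, 2 at Dusp5, 2 at the broad ligand Fgf1, and 1 each at Dusp6, Fgf21 and the receptor Fgfr4. The widest gap between the list and all regions was at the gained regions of EF_IGF1, where the list's share was the smaller.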

How the data were processed

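ATAC-seq peak lists of 12 mouse libraries were used. Per the labels' protocols, 20000 to 50000 cells were opened with digitonin during tagmentation by TDE1 and libraries were read in 50 bp single-end mode. Peaks came from MACS2 (version not stated) on GRCm38.p3, per the submitters' processing notes; aligner, filters, read shift and control were not given in the sources used here. For every peak the deposited lists hold a ratio of its signal to the local background (the fold), −log10 p-values and q-values, and a score. These are the authors' values and were not tested between groups. To pick a gene's strongest region, −log10 p was ranked over the peaks of all 12 libraries together. That ranking made no allowance for list length, so the choice can depend on which libraries have long lists.

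Peaks on chromosomes 1 to 19 and X were merged (1 bp overlap) into regions, a region was called in a library with a peak in it, and regions went to the nearest protein-coding gene interval within 100 kb (RefSeq GRCm38.p6, 21631 genes; 89.0% of regions had one; ties kept). A start peak is one that overlaps a RefSeq window of 250 bases before to 50 after a start.

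Groups follow the genotype label; replicate numbers follow accession order. Calls were counted by the stated rules. The percent of a gene's regions called was tested, EF against Wt, by exact permutation for every gene with at least 5 regions, with Benjamini-Hochberg adjustment. Scripts ran in Python 3.11.15 with numpy 2.4.6, pandas 2.3.3, scipy 1.17.1 and matplotlib 3.10.9 and were tested on simulated data. Alternatives were stricter peaks (−log10 q of at least 5), windows of 250 bp each side of summits, lists cut to 7723 peaks, a 50 kb limit, single flowcells, stricter rules, subtraction of each library's share, and leaving libraries out. All 10 genes were named, with their strongest region, every region gained or lost in EF or EF_IGF1, and those called in all libraries; other regions and the line comparison were chosen after their values were seen. Other pathway genes were named up to 6 per direction by number of regions. The members, the pathway list and the marker lists were chosen with earlier results of these data known.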

Additional observations from a re-analysis of the deposited data

Results flagged for a closer look

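Among 22 groups of 4 libraries tested for a library far from the others, 2 were flagged, and chance flags about 1 in 20. EF replicate 4 called 75% of the Fgf7 regions, against 25% in each of the other 3 EF libraries. EF replicate 2, with the shortest EF list, called 0% of the Spry1 regions, against 40% in each of the other 3.

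At 2 genes the count was lower in EF_IGF1 than in EF in both labelled lines and higher in Wt_IGF1 than in Wt replicate 3. There was a single Wt_IGF1 library, so the difference was not tested. Wt_IGF1 called more regions than Wt replicate 3 at every member gene, with 28 more and 0 fewer over the 112 regions. Its list was also longer, with 83718 peaks against 57324. The rise in Wt thus sets neither gene apart, and its link to IGF1 or to list length was not tested. At Fgf2, EF_IGF1 minus EF was -3 regions in the library labelled S_220 and -1 in S_221, and Wt_IGF1 minus Wt replicate 3, both titled BM, was 2. At Spry2, EF_IGF1 minus EF was -2 in S_220 and -1 in S_221, and Wt_IGF1 minus Wt replicate 3 was 2.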

How the results depend on the processing

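No paired analysis was possible because replicate numbers follow accession order and so pair no libraries across groups; counts within a line or title are in the report. Permuting labels within flowcell gave the 10 genes exact p-values of 0.333 (Fgfr1) to 1 and changed no call, but the Fgfr1 difference after subtracting the library's share then had p = 0.0556 (exact). Cutting every list to its 7723 strongest peaks left 12 member regions; EF lost, EF_IGF1 gained and xeno lost counts were then 0, and EF_IGF1 lost, Wt_IGF1 gained and xeno gained were 1. Fgfr2 (-25), Spry1 (25) and Spry2 (8.33 points) changed sign. At 50 kb EF lost was 0. On BSF_1013 EF lost was 5 and Fgfr2 -10.4. On BSF_0654 8 were gained and 0 lost. There 2 genes, Fgf7 and Fgfr2, did not overlap, with both Wt libraries at 0, and the share of all genes without overlap was not counted. A rule of 4 of 4 gave 0 gained and 0 lost. Without Wt replicates 1 and 2, chosen after seeing the data, 4 were lost and Fgf2 (-11.4), Fgf7 (-12.5), Fgf10 (-2.5) and Fgfr2 (-20.8) turned. Against all 4 EF libraries EF_IGF1 lost was 0; by line, gained and lost were 8 and 19 in S_221 and 15 and 20 in S_220. Xeno lost was 21 against S_221 alone. After subtracting the library's share 1 gene (Fgfr1) did not overlap. Leaving out 1 library gave EF gained 0 to 3 (0 without EF replicate 1, 3 or 4; 3 without Wt replicate 4), EF lost 0 to 2 (0 without Wt replicate 2, 3 or 4; 2 without EF replicate 1), EF_IGF1 gained 3 to 11 (7 without EF_IGF1 replicate 1, 6 without replicate 2, 11 without EF replicate 4) and EF_IGF1 lost 5 to 18 (10 without EF_IGF1 replicate 2, 18 without EF replicate 3, 14 without EF replicate 4), and the sign changed at Fgf18 (-13.0 to 1.85), Fgfr2 (-3.47 to 17.4) and Spry1 (-16.7 to 5). The cause was not tested. Of 133 values of single genes over all alternatives run, label orders within flowcell aside, 111 kept the sign of EF minus Wt, 8 were 0 and 14 had the other sign. Depth is known only as list length.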

Other observations

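Over the 112 regions, the libraries most alike were Wt_IGF1 and Wt replicate 3, which shared 0.632 of the regions called in either, and Wt replicates 3 and 4, which shared 0.629. EF_IGF1 replicates 1 and 2 shared 0.625, although their titles name 2 lines, and EF replicates 1 and 3, of line S_220 and of 2 flowcells, shared 0.620. Over all regions these 4 pairs shared 0.620, 0.570, 0.661 and 0.619. EF replicates 2 and 4, of line S_221, shared 0.278 over the 112 regions and 0.377 over all, with lists of 27332 and 67340 peaks.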
